A study of Mus musculus with 8 samples.

Results

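Interleukin-2 and the receptor chains of the common gamma chain cytokine family were followed across T helper cells with and without Tet2. Of 8 listed genes (Il2, Il2ra, Il2rb, Il2rg, Il4ra, Il7r, Il15ra and Il9r), 7 had a probe set annotated with that symbol alone, among 19938 genes measured in all. The members were taken by name, with the probe set of highest mean signal per gene, and each of the 7 turned out to have a single probe set. Il2rg, which encodes the common gamma chain itself, was not analysed here.

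Gene expression was measured on 8 Affymetrix whole-transcript arrays in 4 groups of mouse T helper cells, with 2 arrays per group that the titles call biological replicates. The groups were Tet2-deficient Th17, wild-type Th17, Tet2-deficient Th1 and wild-type Th1 cells. Tet2-deficient cells came from CD2(Cre)Tet2(f/f) mice and wild-type cells from Tet2(f/f) mice, so cells of both genotypes carry the floxed Tet2 alleles and differ in the Cre transgene as well as in Tet2. CD2 regulatory sequences are active across lymphocytes, so the deletion is not specific to T helper cells. The labels used here give no age, sex, strain, culture conditions or time in culture, and do not say whether a replicate was 1 animal or a pool.

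Cytokines of this family signal through a shared receptor subunit, the common gamma chain, paired with other chains. Interleukin-2 is a growth factor that activated T cells make and use. It binds a complex of Il2ra (CD25), Il2rb (CD122) and the common gamma chain, and interleukin-15 uses Il2rb and the common gamma chain together with Il15ra. Interleukins 4, 7 and 9 use Il4ra, Il7r (CD127) and Il9r. The receptors act through the kinases Jak1 and Jak3 and through STAT proteins, mainly STAT5 for interleukins 2, 7 and 15 and STAT6 for interleukin-4. Interleukin-2 signalling is known to restrain Th17 and to favour Th1 differentiation, and interleukin-7 supports the survival of naive and memory T cells. Tet2 oxidizes methylated cytosine in DNA, mostly where a cytosine precedes a guanine (CG).

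Because Tet2 acts on CG pairs, the 250 bases before a start annotated in RefSeq are shown for the genes whose signals differed most between groups, Il15ra, Il7r and Il2, with CG pairs in capitals. No methylation was measured on these arrays. The sequences are from RefSeq in build GRCm38.p6, 5′ to 3′ on the gene's strand. Il15ra has 2 annotated starts in that table and both windows lie on chromosome 2, plus strand, at chr2:11705043-11705292 and chr2:11705462-11705711. The Il7r window lies on chromosome 15, minus strand, at chr15:9529877-9530126, and the Il2 window on chromosome 3, minus strand, at chr3:37125955-37126204. The gene spans given with the values begin further upstream than some of these starts, so that 65 bases of the Il7r window, 121 of the first Il15ra window and all 250 of the second lie inside the span of their gene, against 0 at Il2.
Il15ra, first start: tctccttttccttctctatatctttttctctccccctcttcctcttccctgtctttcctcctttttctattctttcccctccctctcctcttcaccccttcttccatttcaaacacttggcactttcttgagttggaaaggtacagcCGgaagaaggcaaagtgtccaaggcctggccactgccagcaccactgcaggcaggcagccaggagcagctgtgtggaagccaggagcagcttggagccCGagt
Il15ra, second start: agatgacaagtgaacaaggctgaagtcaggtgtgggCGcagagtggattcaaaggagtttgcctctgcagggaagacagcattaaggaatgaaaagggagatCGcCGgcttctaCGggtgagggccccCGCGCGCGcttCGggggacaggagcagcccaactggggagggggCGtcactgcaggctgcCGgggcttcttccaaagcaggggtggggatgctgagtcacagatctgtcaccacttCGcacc
Il7r: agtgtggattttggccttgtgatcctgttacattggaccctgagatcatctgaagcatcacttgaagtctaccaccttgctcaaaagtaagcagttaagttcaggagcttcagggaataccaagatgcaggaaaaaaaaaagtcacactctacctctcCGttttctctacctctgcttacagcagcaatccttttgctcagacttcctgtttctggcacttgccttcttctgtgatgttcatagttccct
Il2: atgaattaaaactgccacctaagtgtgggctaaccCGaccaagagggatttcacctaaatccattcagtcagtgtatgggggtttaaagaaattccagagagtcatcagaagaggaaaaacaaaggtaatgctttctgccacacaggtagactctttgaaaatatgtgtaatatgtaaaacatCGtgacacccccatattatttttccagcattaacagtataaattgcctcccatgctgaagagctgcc

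These windows held few CG pairs, apart from the second start of Il15ra. There were 2 at the first Il15ra start, 12 at the second, 1 at Il7r and 2 at Il2, where the median of 32851 windows of this length was 6. Of the other members, the Il4ra window held 17, Il9r 5, and Il2ra and Il2rg 3 each, so that 7 of the 8 genes had a window in the table. The Il9r start lies 5004 bases inside the span of its gene, and all 250 bases of the window lie inside that span. The letters TTCNNNGAA, as bound by STAT dimers, occurred on either strand once at Il7r and in none of the other members' windows, where 7.02% of all windows held them. The AP-1 letters TGANTCA occurred once at the second Il15ra start and in no other member's window, where 6.75% of all windows held them. The NFAT core GGAAA was counted 4 times at the first Il15ra start, 2 times at Il2 and once each at Il7r, Il2ra, Il4ra and Il2rg, and 55.6% of all windows held it. In these windows 0 matches of different motifs overlapped, and a match describes letters only.

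The arrays are described in ranges. Median log2 signals of all genes lay between 6.53 and 6.61, and Pearson correlations across genes between replicate arrays between 0.990 and 0.994. The Tet2 signal, read by 1 probe set, was 8.34 and 8.39 in Tet2-deficient Th17, 8.51 and 8.49 in wild-type Th17, 8.12 and 7.98 in Tet2-deficient Th1 and 8.14 and 8.02 in wild-type Th1 cells. Which exons are floxed is not in the labels, so this signal does not check the deletion. Cd4 read between 10.18 and 10.42 on all arrays, and all 6 measured Th17 markers passed as higher in Th17 than in Th1 cells of both genotypes. Of 8 Th1 markers, 5 were called lower in Th17 than in Th1 cells in each genotype. Among the same 8, 1 was called higher in Tet2-deficient Th17 cells and 0 in wild-type Th17 cells. Of markers of other cells, 2 of 2 CD8, 4 of 5 B cell, 6 of 7 natural killer, 6 of 7 myeloid, 5 of 5 dendritic and 4 of 4 mast cell genes averaged under the median gene. The Th17 arrays differed in the sex of the RNA. Taking Xist, an RNA made from the inactive X chromosome, on Tet2-deficient Th17 replicate 2 as 100%, the female share was 14.7% on Tet2-deficient Th17 replicate 1, 0.187% and 42.9% on wild-type Th17 replicates 1 and 2, and between -0.130% and 0.105% on the Th1 arrays. Eif2s3y, a gene of the Y chromosome, read 9.36 and 4.33 on Tet2-deficient and 9.65 and 8.46 on wild-type Th17 replicates 1 and 2. Tet2-deficient Th17 replicate 1 and wild-type Th17 replicate 2 thus held RNA of both sexes, and so of more than 1 animal, which the labels do not say.

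Il2, the ligand, had its lowest signals in Tet2-deficient Th17 cells. On single arrays the log2 signal of Il2 (gene ID 16183, chromosome 3, 37120713 to 37125954 in GRCm38) was 6.63 and 6.27 in Tet2-deficient Th17, 6.90 and 7.21 in wild-type Th17, 7.05 and 6.93 in Tet2-deficient Th1 and 7.15 and 6.68 in wild-type Th1 cells. Both Tet2-deficient Th17 arrays lay below every other array, while the other 3 groups overlapped one another. Its mean over the 8 arrays, 6.85, lay above 56.4% of all genes, where the median gene read 6.56.
In Th17 cells the log2 fold change of Il2 between Tet2-deficient and wild-type cells was -0.60 ± 0.17 (SE, n = 2 and 2), a 1.52-fold difference. It did not pass the test across all genes (limma, Benjamini-Hochberg adjusted p = 0.789), although its unadjusted p was 0.00395. In Th1 cells the difference was 0.08 ± 0.17 (adjusted p = 0.971), with a 95% interval from -0.30 to 0.45. The Th17 effect minus the Th1 effect was -0.68 ± 0.24 and did not pass (adjusted p = 0.999). Fewer cells that make a transcript and less transcript per cell cannot be told apart in bulk RNA. Tet2-deficient Th17 replicate 2, the lowest array for Il2, was also the array with the most Xist, and with the female share in the fit the Th17 difference was -0.53 ± 0.20 (adjusted p = 0.9998). The part of sex in the Il2 difference was not tested beyond that fit.

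**Figure D1:**
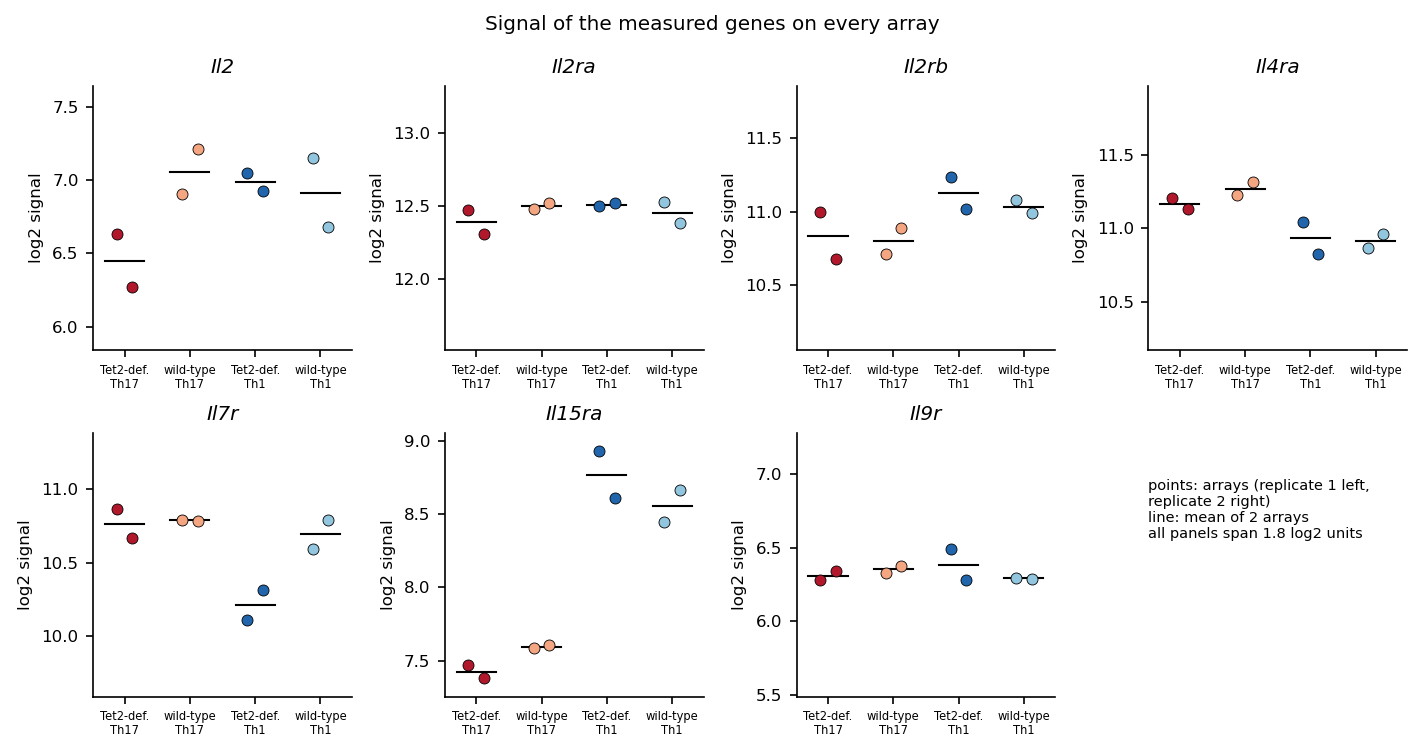
Log2 signal (vertical axis) of the 7 measured genes on each of the 8 arrays, by group (horizontal axis), with the mean of 2 arrays as a line. Il15ra lies lower in both Th17 groups, Il7r is lowest in Tet2-deficient Th1 cells and Il2 is lowest in Tet2-deficient Th17 cells.

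The interleukin-2 receptor chains differed little between groups. Il2ra, the alpha chain that gives the receptor its high affinity (gene ID 16184, chromosome 2, 11642792 to 11693194), read 12.47 and 12.31 in Tet2-deficient Th17, 12.48 and 12.52 in wild-type Th17, 12.50 and 12.52 in Tet2-deficient Th1 and 12.53 and 12.38 in wild-type Th1 cells. Its whole range over 8 arrays was thus 12.31 to 12.53, and the lowest array was again Tet2-deficient Th17 replicate 2. The mean of Il2ra, 12.46, lay above 99.8% of all genes, and how arrays respond at so high a signal was not tested. The genotype difference of Il2ra was -0.11 ± 0.12 in Th17 cells, with a 95% interval from -0.38 to 0.16, and 0.05 ± 0.12 in Th1 cells, with an interval from -0.22 to 0.32.
Il2rb, the signalling chain shared by interleukins 2 and 15 (gene ID 16185, chromosome 15, 78479256 to 78511621), read 11.00 and 10.68 in Tet2-deficient Th17, 10.71 and 10.89 in wild-type Th17, 11.24 and 11.02 in Tet2-deficient Th1 and 11.08 and 10.99 in wild-type Th1 cells. The genotypes overlapped in both subsets, with differences of 0.04 ± 0.14 in Th17 and 0.10 ± 0.14 in Th1 cells. Il2rb lay lower on both Th17 arrays than on both Th1 arrays of each genotype, by -0.29 ± 0.14 in Tet2-deficient cells (adjusted p = 0.234) and -0.23 ± 0.14 in wild-type cells (adjusted p = 0.352), which did not pass.

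Il15ra, which binds interleukin-15 and presents it to cells with Il2rb, was the member called between the subsets in both genotypes. The log2 signal of Il15ra (gene ID 16169, chromosome 2, 11705172 to 11733985) was 7.47 and 7.38 in Tet2-deficient Th17, 7.59 and 7.61 in wild-type Th17, 8.93 and 8.61 in Tet2-deficient Th1 and 8.44 and 8.67 in wild-type Th1 cells. No Th17 array reached any Th1 array. Il15ra fell 2.54-fold in Th17 against Th1 cells when both were Tet2-deficient, with a log2 fold change of -1.34 ± 0.13 (SE, n = 2 and 2, adjusted p = 5.7e-05, limma). It fell 1.94-fold in wild-type Th17 against wild-type Th1 cells, at -0.96 ± 0.13 (adjusted p = 0.000872). Both calls held under all 18 alternatives tried, with values from -1.50 to -1.18 in Tet2-deficient and from -1.07 to -0.85 in wild-type cells. Between genotypes Il15ra differed by -0.17 ± 0.13 in Th17 cells, where the arrays did not overlap, and by 0.21 ± 0.13 in Th1 cells, where they did. The difference of the 2 genotype effects, which is also the difference of the 2 subset effects, was -0.38 ± 0.19 (adjusted p = 0.999), with a 95% interval from -0.80 to 0.03.

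Il7r, the alpha chain of the interleukin-7 receptor, was lowest in Tet2-deficient Th1 cells. Its log2 signal (gene ID 16197, chromosome 15, 9506159 to 9529941) was 10.86 and 10.66 in Tet2-deficient Th17, 10.79 and 10.79 in wild-type Th17, 10.11 and 10.31 in Tet2-deficient Th1 and 10.59 and 10.79 in wild-type Th1 cells. The Tet2-deficient Th1 arrays lay below all others, and the other 3 groups overlapped or touched. In Th1 cells Il7r was at -0.48 ± 0.13 between Tet2-deficient and wild-type cells, a 1.40-fold difference with an unadjusted p of 0.00364 that did not pass over all genes (adjusted p = 0.797). The summed level of 4 measured markers of naive T cells, which carry much Il7r, was on the log2 scale 12.46 to 12.54 in Tet2-deficient Th1 and 12.23 to 12.29 in wild-type Th1 cells, which did not overlap. Ccr7, the marker with the highest signal, averaged 12.20 in Tet2-deficient Th1 cells, against 11.87 in wild-type Th1 cells, and the sums of the other 3 overlapped. The part of these markers in the Il7r difference was not tested. In Th17 cells the Il7r difference between genotypes was -0.02 ± 0.13, with a 95% interval from -0.31 to 0.27.
Against Tet2-deficient Th1 cells, Il7r rose 1.47-fold in Tet2-deficient Th17 cells (log2 fold change 0.55 ± 0.13, adjusted p = 0.0212). The same comparison in wild-type cells gave 0.10 ± 0.13 (adjusted p = 0.713), and the difference between both did not pass (0.46 ± 0.19, adjusted p = 0.999). The Il7r call ended when replicate 1 of Tet2-deficient Th1 cells was left out (0.45, adjusted p = 0.159), and likewise for replicate 1 (0.45, adjusted p = 0.212) or replicate 2 (0.65, adjusted p = 0.0545) of Tet2-deficient Th17 cells. It also ended when the female share entered the fit (0.66, adjusted p = 0.0902) and when every probe set was tested (0.55, adjusted p = 0.0758). Of the 4 naive T cell markers, 2 were called higher in Tet2-deficient Th17 against Tet2-deficient Th1 cells, Lef1 (1.28) and S1pr1 (1.29), and 1 lower, Ccr7 (-0.74). The same 3 genes were called in the same directions in wild-type cells (Lef1 1.08, S1pr1 0.85 and Ccr7 -0.50). The summed level of these 4 markers, on the log2 scale, was 12.34 to 12.37 in Tet2-deficient Th17 and 12.46 to 12.54 in Tet2-deficient Th1 cells, and its part in the Il7r result was not tested.

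Il4ra is the alpha chain of the interleukin-4 receptor (gene ID 16190, chromosome 7, 125552271 to 125579474). It read 11.20 and 11.13 in Tet2-deficient Th17 and 11.23 and 11.31 in wild-type Th17 cells. In Th1 cells it read 11.04 and 10.82 when Tet2-deficient and 10.86 and 10.96 when wild-type. Every Th17 array lay above every Th1 array, but neither subset difference passed, at 0.23 ± 0.13 in Tet2-deficient cells (adjusted p = 0.281) and 0.36 ± 0.13 in wild-type cells (adjusted p = 0.103). Between genotypes Il4ra differed by -0.10 ± 0.13 in Th17 and 0.02 ± 0.13 in Th1 cells.
Il9r, the private chain of the interleukin-9 receptor (gene ID 16199, chromosome 11, 32187544 to 32205283), stayed between 6.28 and 6.49 on all 8 arrays, under the median gene. Its 95% interval between genotypes ran from -0.28 to 0.20 in Th17 and from -0.15 to 0.33 in Th1 cells.

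**Figure D2:**
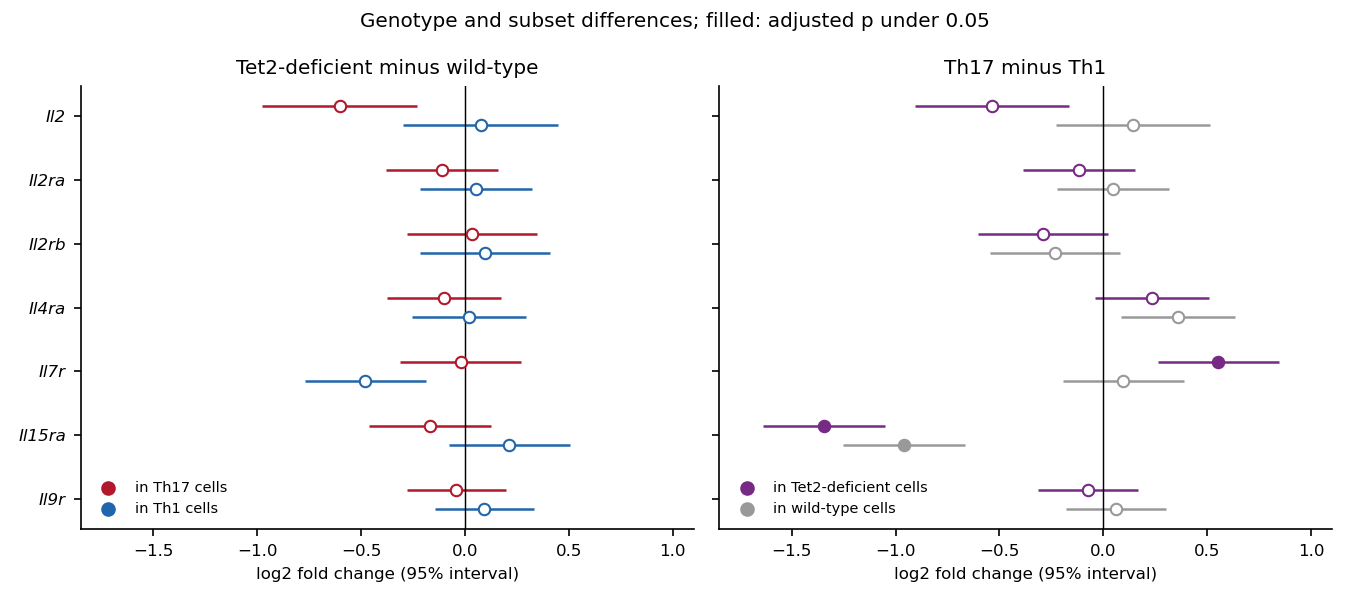
Log2 fold change (horizontal axis) with its 95% interval for each measured gene, Tet2-deficient minus wild-type on the left and Th17 minus Th1 on the right, with filled points past an adjusted p of 0.05. The filled points are Il15ra in both genotypes and Il7r in Tet2-deficient cells.

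Counted over the members, no gene passed between genotypes. In Th17 cells 0 of 7 were called by limma, where 0% of all genes were, and 1 of 7, Il2, had an unadjusted p under 0.05, against 4.13% of all genes. In Th1 cells 0 of 7 were called, where 0.00502% of all genes were, and 1 of 7, Il7r, had an unadjusted p under 0.05, against 6.05% of all genes. The mean effect of both subsets and the difference of the effects gave 0 of 7 calls each, with 0% of all genes called in either, and 2 of 7 members under an unadjusted p of 0.05 in each, again Il2 and Il7r, against 5.48% and 4.48% of all genes. The median member difference was -0.10 in Th17 cells, with 6 of 7 below 0, and 0.08 in Th1 cells, with 6 of 7 above 0, where the median of all genes was 0.01 in both. Of all genes, 54.4% were above 0 in Th17 and 54.1% in Th1 cells. Several of these member signs changed under an alternative, as given in the last section. Arrays of the genotypes did not overlap for 4 of 7 members in Th17 cells, against 32.9% of all genes, and for 1 of 7 in Th1 cells, against 33.3%. Between subsets, 2 of 7 members were called in Tet2-deficient cells, against 10.1% of all genes, and 1 of 7 in wild-type cells, against 8.4% of all genes. Subset arrays did not overlap for 6 of 7 members in Tet2-deficient cells, against 57.5% of all genes, and for 4 of 7 in wild-type cells, against 52.2%.

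**Figure D3:**
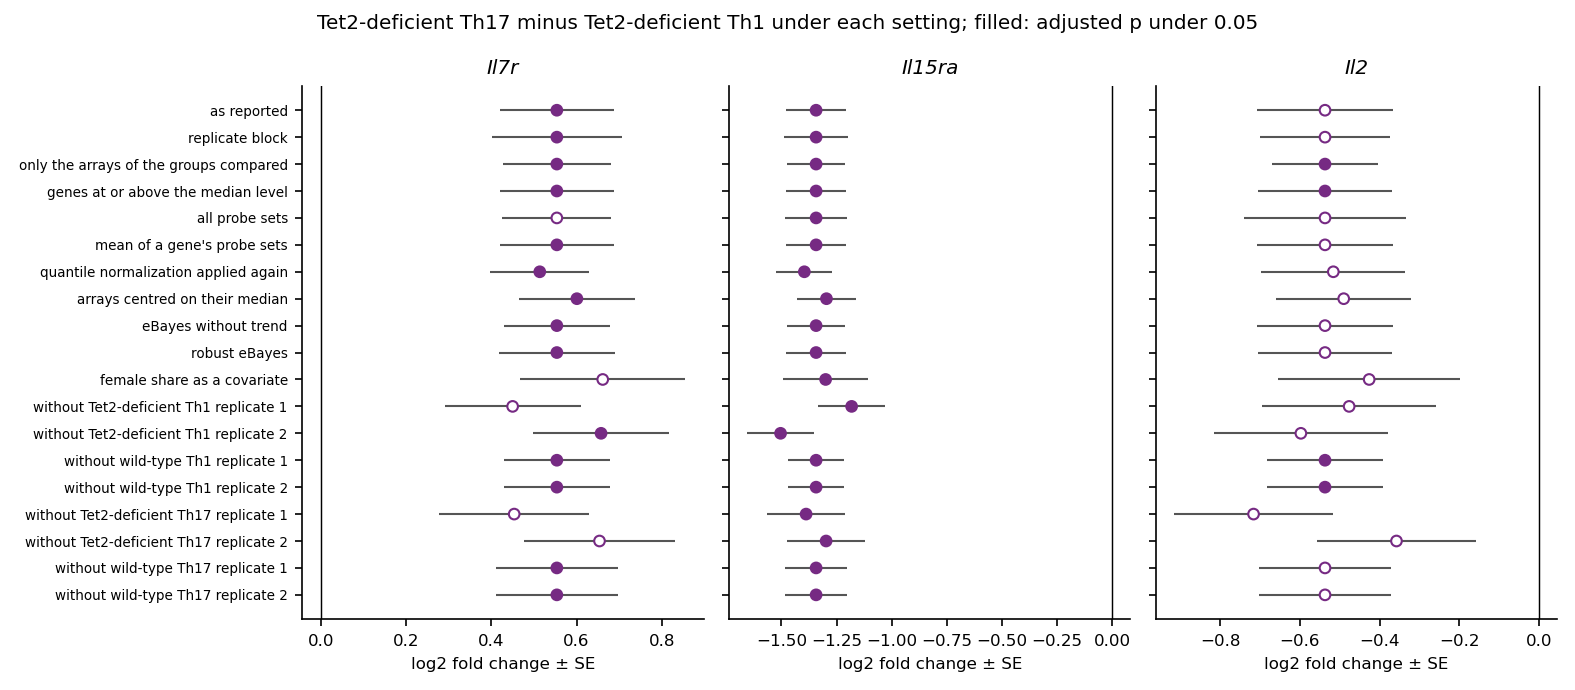
Log2 fold change ± SE (horizontal axes) of Il7r, Il15ra and Il2 in Tet2-deficient Th17 minus Tet2-deficient Th1 cells under each setting (vertical axis), filled where the adjusted p is under 0.05. Il15ra is filled in every row, Il7r is open in 5 and Il2 is filled in 4.

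Il2 in the subset comparison lay just outside the threshold. In Tet2-deficient Th17 against Tet2-deficient Th1 cells its log2 fold change was -0.54 ± 0.17 (adjusted p = 0.0669), and 0.14 ± 0.17 (adjusted p = 0.658) between the wild-type subsets. The first passed under 4 of 18 alternatives, a fit on the 4 arrays compared (adjusted p = 0.0312), a test restricted to genes at or above the median level (0.0404) and leaving out either wild-type Th1 array (0.0365 and 0.0367). Without Tet2-deficient Th17 replicate 2 it was -0.36.

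Members lie next to other genes of the family in 3 places of the genome, and the subset differences of these neighbours are given side by side. The nearest measured gene on each side was taken by position. Il2ra and Il15ra lie 11977 bases apart on chromosome 2, and while Il15ra fell in Th17 cells, Il2ra differed between subsets by -0.12 ± 0.12 in Tet2-deficient and 0.04 ± 0.12 in wild-type cells, neither passing. Fbh1, a DNA helicase gene on the other side of Il15ra, differed by 0.25 ± 0.12 in Tet2-deficient and 0.05 ± 0.12 in wild-type cells, neither passing. Il2 lies 96804 bases from Il21, a cytokine of the same family that Th17 cells make. Il21 read 11.00 and 10.73 in Tet2-deficient Th17, 11.31 and 11.26 in wild-type Th17, 8.78 and 9.30 in Tet2-deficient Th1 and 9.72 and 9.47 in wild-type Th1 cells, and rose in Th17 cells by 1.82 ± 0.17 when Tet2-deficient (adjusted p = 3.8e-05) and 1.69 ± 0.17 when wild-type (adjusted p = 7.2e-05). Il4ra lies 23777 bases from Il21r, the private chain of the interleukin-21 receptor. Il21r read 10.40 and 10.05 in Tet2-deficient Th17, 9.84 and 10.27 in wild-type Th17, 10.82 and 10.65 in Tet2-deficient Th1 and 10.58 and 10.71 in wild-type Th1 cells. It was lower in wild-type Th17 against wild-type Th1 cells (-0.59 ± 0.17) at an adjusted p of 0.0468, and had -0.51 ± 0.17 in Tet2-deficient cells (adjusted p = 0.0718). The Il21r call in wild-type cells ended with the female share in the fit (adjusted p = 0.106) and with any array left out (0.0548 to 0.266) except replicate 2 of wild-type Th17 cells (0.0357). Without wild-type Th17 replicate 1 the Il21r difference was -0.37. Il4ra had positive differences in the same comparisons. Whether the genes of a pair differ from each other in their subset effect was not tested.

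**Figure D4:**
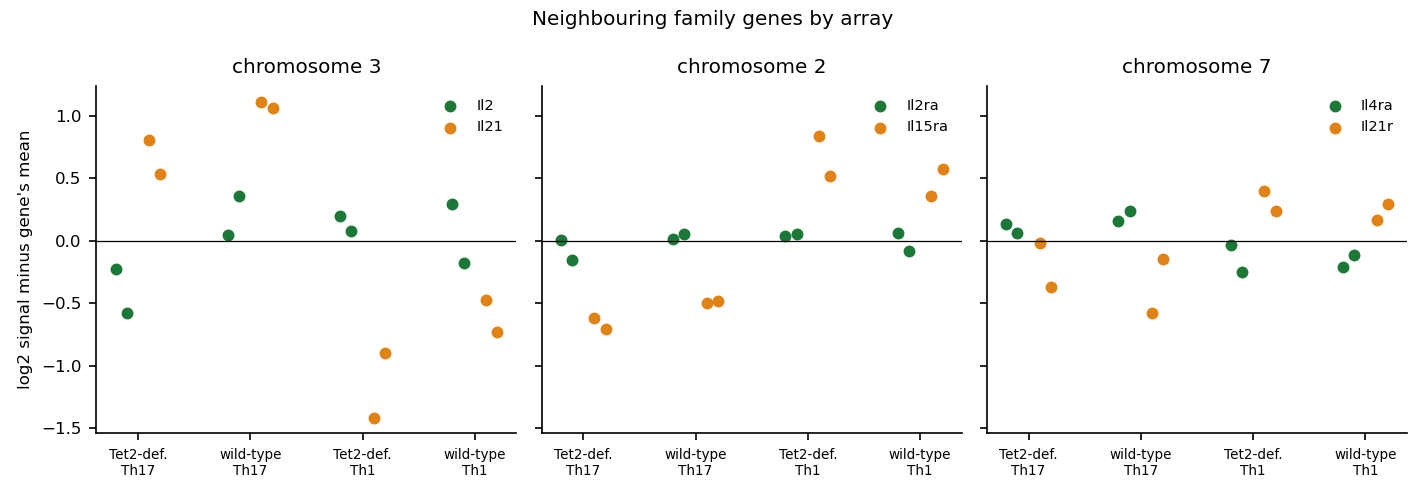
Log2 signal minus each gene's own mean over 8 arrays (vertical axis) for 3 pairs of neighbouring family genes, by group (horizontal axis), with a point per array. Il21 and Il4ra lie higher on every Th17 array than on any Th1 array, Il21r and Il15ra lie lower, and Il2 and Il2ra overlap between the subsets.

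Other genes of the pathway were counted from 6 lists. Between genotypes 0 genes of any list were called in either subset. In Th17 cells the genes with the smallest p, none passing, included Lta, the lymphotoxin gene and a STAT5 target (-0.96 ± 0.15, adjusted p = 0.183), Bcl6, a repressor that interleukin-2 signalling holds down (0.75 ± 0.14, adjusted p = 0.377), and Socs2, a feedback inhibitor (-0.55 ± 0.18, adjusted p = 0.983). Others were Dusp6 (-0.28), Jak1 (0.22), Tyk2 (0.25), Nfatc3 (0.39), Runx3 (0.19), Il21 (-0.42), Il15 (-0.11), Il21r (0.17) and Il13ra1 (0.05). In Th1 cells they included Prdm1, the gene of the repressor Blimp-1 (-0.76 ± 0.11, adjusted p = 0.210), Bcl2l11, the gene of the death protein Bim (0.48 ± 0.13, adjusted p = 0.797) and Il21 (-0.55 ± 0.17, adjusted p = 0.797). Others were Ikzf3 (0.42), Fosl1 (0.39), Gab2 (0.34), Ptpn6 (0.23), Dusp5 (0.23), Socs1 (0.24), Il15 (0.12), Il13ra1 (-0.38) and Il21r (0.09). The list of receptor chains held only 3 genes, and Il21r had an unadjusted limma p of 0.325 in Th17 and 0.592 in Th1 cells. Of 30 measured regulators of Il2 and Il2ra transcription, 17 were above 0 in Th17 cells with a median of 0.03, and 26 in Th1 cells with a median of 0.16, where 54.4% and 54.1% of all genes were above 0. Of 20 survival and target genes, 12 were below 0 in Th17 cells with a median of -0.10, and 8 in Th1 cells with a median of 0.02.

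Between subsets the lists held more calls. In Tet2-deficient cells 6.32% of all genes were called higher in Th17 cells and 3.79% lower. In wild-type cells 4.97% were called higher and 3.44% lower, and the medians of all genes were -0.03 in both. Of 7 other ligands, 1 was called higher in both genotypes, Il21, with list medians of -0.12 and -0.13 in Tet2-deficient and wild-type cells. Of 3 other receptor chains, 0 were called in Tet2-deficient and 2 in wild-type cells, both lower, Il21r and Il13ra1 (-0.94 ± 0.16), with medians of -0.50 and -0.59. Of 14 kinases, STATs and adaptors, 2 were called higher and 1 lower in each genotype. These were the kinase Jak1 (0.74 in Tet2-deficient and 0.50 in wild-type cells), the transcription factor Stat5b (0.51 and 0.65) and the phosphatase Ptpn6 (-0.56 and -0.46), with list medians of -0.05 and 0.04. Of 8 feedback inhibitors, 2 were called lower in Tet2-deficient cells, the phosphatases Dusp5 (-0.77) and Dusp6 (-0.62), and 1 higher in wild-type cells, Socs2 (0.65), with medians of -0.12 and -0.03. Among 20 survival and target genes, 5 were called higher and 8 lower in Tet2-deficient cells and 6 higher and 3 lower in wild-type cells, with medians of -0.35 and -0.03. The largest in Tet2-deficient cells were granzyme B (Gzmb, -4.72), Bcl6 (1.87), the cell cycle inhibitor Cdkn1b (1.41) and the inhibitory receptor Ctla4 (1.16), and in wild-type cells Gzmb (-4.85), Prdm1 (-1.63), Ctla4 (1.27) and Bcl6 (1.18). Of the 30 regulators, 6 were called higher and 4 lower in Tet2-deficient cells and 7 higher and 2 lower in wild-type cells, with medians of -0.01 and 0.09. The largest were Ikzf3, the gene of Aiolos, which represses Il2 (1.39), Runx3 (-0.99), Nfkb2 (-0.96) and Nfatc3 (0.87) in Tet2-deficient cells, and Ikzf3 (1.68), Ets1 (0.99), Runx1 (0.96) and Runx3 (-0.88) in wild-type cells. With the female share in the fit, the calls in Tet2-deficient cells were 1 ligand, 7 survival and target genes and 5 regulators. No receptor chain, kinase, adaptor or feedback inhibitor was called there. In wild-type cells that fit called 1 ligand, 1 receptor chain (Il13ra1), 1 kinase or adaptor and 1 feedback inhibitor. It also called 9 survival and target genes and 8 regulators there. Some calls were also lost when replicate 2 of Tet2-deficient Th17 or of wild-type Th17 cells was left out, leaving 1 array there.

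**Figure D5:**
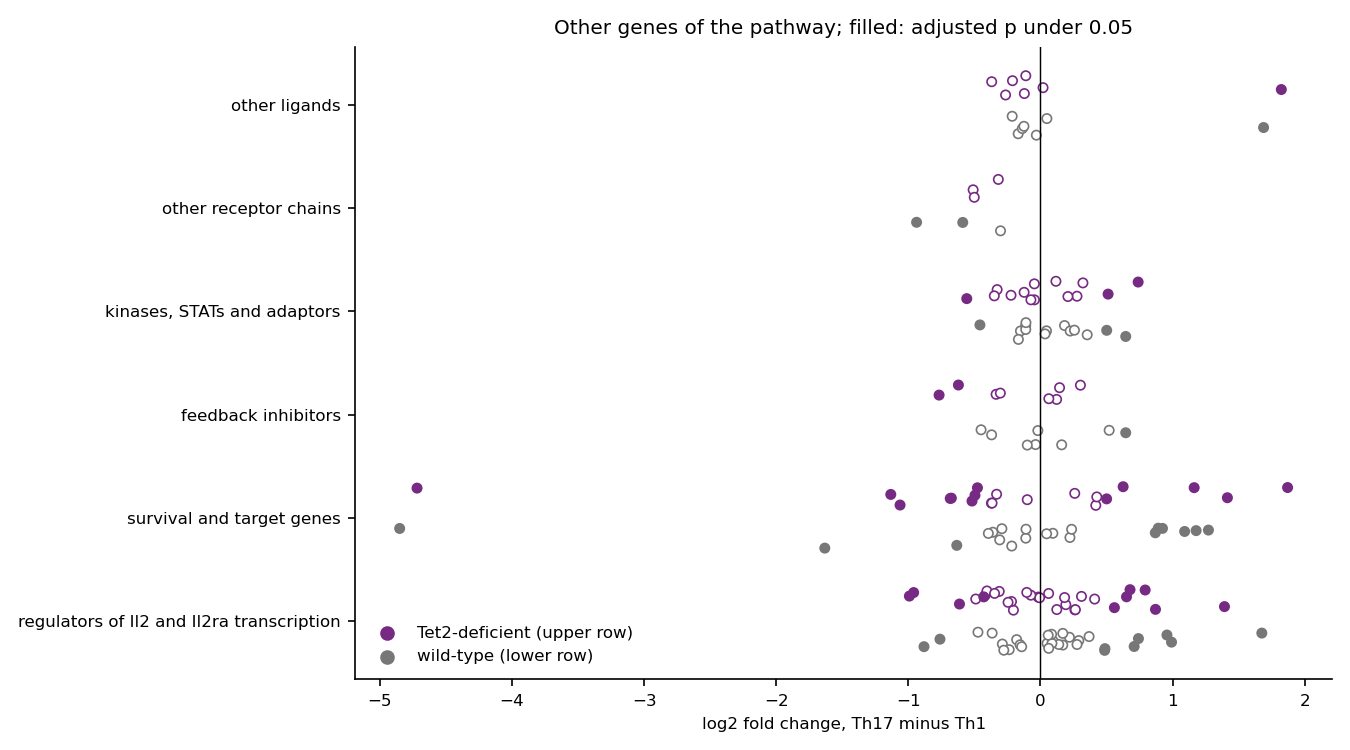
Log2 fold change of Th17 minus Th1 cells (horizontal axis) for each measured gene of 6 pathway lists (vertical axis), Tet2-deficient cells in the upper row of each list and wild-type cells in the lower, filled past an adjusted p of 0.05. Gzmb stands far to the left in both genotypes and Il21 to the right.

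Markers of other cells and of related T cell states were summed on each array, on the log2 scale. Of 11 marker lists, 8 had sums that did not overlap between genotypes in Th17 cells. Among all single genes, 32.9% did not overlap there, and the share for sums of several genes was not measured. Higher in Tet2-deficient Th17 cells were 5 of the 8 sums. The natural killer sum was 8.79 to 9.14 in Tet2-deficient and 8.40 to 8.50 in wild-type Th17 cells, the myeloid sum 10.44 to 10.65 in Tet2-deficient and 9.62 to 9.96 in wild-type Th17 cells, and the Th1 sum 11.48 to 11.54 in Tet2-deficient and 11.24 to 11.30 in wild-type Th17 cells. The mast cell sum was 7.19 to 7.28 in Tet2-deficient and 7.01 to 7.02 in wild-type Th17 cells, and the naive T cell sum 12.34 to 12.37 in Tet2-deficient and 12.16 to 12.31 in wild-type Th17 cells. Lower in Tet2-deficient Th17 cells were 3 lists. The Th17 sum was 11.91 to 12.23 in Tet2-deficient and 12.26 to 12.34 in wild-type Th17 cells, the dendritic sum 8.01 to 8.03 in Tet2-deficient and 8.05 to 8.11 in wild-type Th17 cells, and the regulatory T cell sum 9.19 to 9.20 in Tet2-deficient and 9.73 to 9.74 in wild-type Th17 cells.

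Single genes made up much of some of these gaps. Without Siglech, the marker with the highest signal in its list, the dendritic sums overlapped. They were then 7.586 to 7.695 in Tet2-deficient and 7.691 to 7.692 in wild-type Th17 cells. The other lists that did not overlap in Th17 cells stayed apart without the marker of highest signal. Among 7 myeloid markers Ly6g averaged 10.26 in Tet2-deficient and 9.28 in wild-type Th17 cells, while the sum of the other 6 was 8.06 to 8.07 in Tet2-deficient and 8.02 to 8.04 in wild-type Th17 cells. Among 5 regulatory T cell markers Gpr83 averaged 7.94 in Tet2-deficient and 8.91 in wild-type Th17 cells. Foxp3, the factor that defines regulatory T cells, averaged 6.51 in Tet2-deficient and 6.53 in wild-type Th17 cells, and the sum of the 4 markers other than Gpr83 was 8.38 to 8.44 in Tet2-deficient and 8.51 to 8.56 in wild-type Th17 cells. Among 7 natural killer markers Klrd1 averaged 7.66 in Tet2-deficient and 6.41 in wild-type Th17 cells. The Th1 markers did not move together in Th17 cells, where 5 of 8 were above 0 between genotypes and 3 below. Il12rb2, the marker with the highest signal, averaged 10.54 in Tet2-deficient and 10.17 in wild-type Th17 cells. Tbx21 went the other way, at 6.92 and 7.28 on the Tet2-deficient and 7.45 and 7.85 on the wild-type Th17 arrays. Ifng arrays of the genotypes overlapped there. In Th1 cells 3 of the 11 lists did not overlap between genotypes, where 33.3% of all single genes did not. The myeloid and naive T cell sums were higher and the Th1 sum lower in Tet2-deficient Th1 cells. Without Ly6g the myeloid sums overlapped, at 8.21 to 8.22 in Tet2-deficient and 8.11 to 8.30 in wild-type Th1 cells. Of the 8 Th1 markers, 5 were below 0 between genotypes in Th1 cells and 3 above. Ifng averaged 10.30 in Tet2-deficient and 11.69 in wild-type Th1 cells, and Tbx21 10.44 and 10.23. No gene of the 11 lists passed the limma test between genotypes in Th17 cells, and in Th1 cells 1 did, Ifng. The part of these markers in the members' values was not tested.

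Genes with the most similar profile were found by the root mean square difference over the 8 arrays, after each gene's own mean was subtracted, among 9462 named genes at or above the median level. Closest to Il2, whose SD over the 8 arrays was 0.31, were Ptger4, a prostaglandin E2 receptor gene (0.10), the kinase gene Nek6 (0.12) and the chromatin remodeller gene Chd3 (0.16). Closest to Il7r, with an SD of 0.27, were the ubiquitin ligase gene Cul5 (0.08), Etaa1 (0.08) and the splicing factor gene Prpf39 (0.08). For Il2ra, with an SD of only 0.08, they were Hebp2 (0.02), Swi5 (0.03) and Nxt1 (0.04), and at so small a spread the likeness describes near-constant signals.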

How the data were processed

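The deposited table holds log2 signals of probe sets in 1 column per array. Per the submitters' processing notes the authors used Affymetrix Expression Console, GCOS and RMA (no versions given), and neither the order nor the options of the steps are stated. Since RMA puts arrays on a common scale, no further scaling was applied. Array signals have no read depth, and precision is limited by how many arrays there are.

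Of 35556 probe sets, 21789 had a single symbol in the platform annotation of GEO and 21698 of these matched GRCm38 reference genes by gene ID. The 1621 with several symbols and the 12146 with none given were left out. The probe set with the highest mean was kept for each of 19938 genes, with no filter on low signal.

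Testing used limma 3.58.1 under R 4.3.3 (lmFit on 4 group means of all 8 arrays, eBayes with an intensity trend, 4 residual and 8.32 prior degrees of freedom). Tests were two-sided, Benjamini-Hochberg adjustment ran over the 19938 genes of each of 6 contrasts, with calls made at an adjusted p under 0.05. Values after ± are standard errors of log2 fold changes. The method was tested on simulated data, and the outcome is not given here. Nothing in the labels says that replicates came from separate animals or cultures beyond the word biological, so p-values measure the spread between these arrays.

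The members, pathway lists and marker lists were chosen with earlier results of these data known. All measured members were named, with up to 4 called genes of largest fold per pathway list and contrast, or up to 2 of smallest p where none was called, and 3 genes of nearest profile for Il2, Il2ra and Il7r. Markers and neighbours in the genome named beside a result were chosen after their values were seen or by position. Listed genes without a probe set of a single symbol, such as Il2rg and Jak3, were not analysed here. Replicate numbers did not pair arrays across groups (correlations of same-numbered deviations from the group means, across genes, were -0.19 to 0.06), so no term for them was used. Alternatives were a replicate block, a fit on only the arrays compared, a filter at the median level, testing every probe set, averaging the probe sets of a gene, a second quantile normalization, centring, eBayes without trend, robust eBayes, a covariate for the female share of RNA (linear Xist signal) and leaving out each array. The female share and left-out arrays for the pathway lists, Il21r and Il13ra1 were added after the data were seen.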

Additional observations from a re-analysis of the deposited data

How the results depend on the processing

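Between genotypes, for the mean effect and for the difference of the effects, 0 members were called under every alternative run (of 7, or of 6 under the filter at the median level, which left out Il9r), and in wild-type Th17 against Th1 cells the count stayed at 1, Il15ra. In Tet2-deficient Th17 against Th1 cells the count of 2 became 1 with all probe sets and 1 with the female share in the fit, and ranged from 1 to 3 with an array left out. The block on replicate number changed no call and left the counts at 2 in Tet2-deficient and 1 in wild-type subset comparisons. Some differences that did not pass changed sign. With quantile normalization applied again, Il2ra (-0.031) and Il4ra (-0.027) did so between genotypes in Th1 cells, and with the female share in the fit Il7r between genotypes in Th17 cells (0.045) and Il2rb in the difference of the effects (0.019). With an array left out, the ranges that crossed 0 were, between genotypes in Th1 cells, -0.16 to 0.31 for Il2, -0.018 to 0.12 for Il2ra, -0.012 to 0.20 for Il2rb, -0.087 to 0.13 for Il4ra and -0.011 to 0.20 for Il9r. In Th17 cells they were -0.13 to 0.20 for Il2rb and -0.12 to 0.078 for Il7r. For the mean effect they were -0.069 to 0.013 for Il2ra, -0.015 to 0.15 for Il2rb, -0.095 to 0.013 for Il4ra, -0.059 to 0.10 for Il15ra and -0.027 to 0.078 for Il9r, and for the difference of the effects -0.22 to 0.10 for Il2rb. Between subsets they were -0.093 to 0.38 for Il2, -0.027 to 0.12 for Il2ra and -0.0052 to 0.20 for Il7r in wild-type cells, and -0.18 to 0.030 for Il9r in Tet2-deficient cells. The causes were not tested. Where an array is left out, the lone array of its group is assumed to vary like the other groups. With 2 arrays per group, small genotype differences of the members cannot be resolved. Signal over background was not measured here, so how far Il9r and Il2 lie above it is not known.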
